A study of Mus musculus with 16 samples.

Results

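Cholesterol and fatty acid synthesis is described here through 34 genes, a named list of 18 enzymes of sterol synthesis, 7 regulators and carriers of sterol, and 9 enzymes that make, lengthen or desaturate fatty acids. Probes were assigned to a gene through the transcript accession in the array files, and the list is one of names, with no threshold on a measured value, drawn up with earlier results of these data known. Of the 34 genes, 33 had a tested probe, out of 15395 genes tested on the arrays in all. Acat2, which joins acetyl-CoA units at the head of the pathway, had no matching probe. All 33 were well above background on all 16 arrays, so that no member entered through 1 group alone.

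RNA was hybridised to 1-colour Agilent arrays from primary lung fibroblasts, obtained by enzymatic digestion from mice labelled female and 8 weeks old. The groups were meflin knockout (KO) cells with recombinant TGF-β1 at 5 ng/ml for 48 h, KO cells with vehicle, wild type (WT) C57BL/6J cells with the same TGF-β1, and WT cells with vehicle, with 4 arrays in each. Meflin is a membrane-anchored protein of fibroblasts and mesenchymal progenitors, encoded by Islr, and TGF-β1 is a cytokine that drives fibroblasts towards the contractile, matrix-laying myofibroblast state. The design text calls the 4 replicates of a group independent experiments, and nothing ties an array to a separate mouse, so p-values measure the spread between these cultures only.

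Cells make cholesterol from acetyl-CoA through mevalonate, squalene and lanosterol, and fatty acids from the same acetyl-CoA through malonyl-CoA. When membrane sterol is low, SCAP carries the SREBP transcription factors from the endoplasmic reticulum to the Golgi, where they are cut and released to switch on nearly every enzyme of both routes, while the INSIG proteins hold the complex back when sterol is plentiful. Oxysterols act the other way through the LXR receptors, which raise sterol export by ABCA1 and, through the SREBP gene Srebf1, fatty acid synthesis.

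The targeted gene matched the labels: the single Islr probe was well above background on 0 of 8 KO arrays and 8 of 8 WT arrays. Its signal was at least 20.1-fold lower in KO than in WT cells with TGF-β1 and at least 140-fold lower with vehicle, on the bound set by the dimmest probes above background. Within a group the lowest correlation between arrays was 0.99587, and 75th percentiles of raw intensity were 564 to 652 on KO TGF-β1, 680 to 752 on KO vehicle, 623 to 658 on WT TGF-β1 and 707 to 753 on WT vehicle arrays. All 10 fibroblast markers were above background on all 16 arrays. All 8 macrophage and leukocyte markers were too, with a summed intensity of 40100 to 43300 on KO TGF-β1, 77500 to 81800 on KO vehicle, 56400 to 59200 on WT TGF-β1 and 90300 to 106000 on WT vehicle arrays. Of 6 endothelial markers 5 were above background on all 16 arrays, with sums of 632 to 722 on KO TGF-β1, 2230 to 2430 on KO vehicle, 1110 to 1140 on WT TGF-β1 and 2720 to 2910 on WT vehicle arrays. All 5 mesothelial markers were, with sums of 10900 to 12300, 20800 to 21400, 20000 to 20900 and 23500 to 24800 in the same order of groups. Of 8 epithelial markers 3 were, with sums of 9310 to 10300, 5620 to 5830, 9740 to 10500 and 6010 to 6820 over the 6 tested. Epcam and Nkx2-1, which define lung epithelium, had no tested probe. Of 6 adipocyte and lipofibroblast markers 3 were, with sums of 24200 to 26500, 29800 to 31000, 18300 to 19700 and 37000 to 40800 over the 4 tested. Plin1 and Adipoq, which define adipocytes, had no tested probe either. Whether these markers lacked a matching probe or were too dim was not separated, so their absence from the cultures is not shown. The part of these cell types in the results was not tested. These are bulk RNA measurements of mixed cultures, in which fewer cells of a type and less RNA per cell cannot be told apart.

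The promoters of 4 members that fell with TGF-β1 in both genotypes are shown with the motifs of factors known to drive this pathway. RefSeq promoter windows of GRCm38.p6, 250 bases before to 50 after the transcription start, were found for 27 of the 34 members. The letters CCAAT, the box bound by NF-Y, were searched on both strands, together with CACNCCAC, a core of the sterol regulatory element bound by SREBP. Only members called in the same direction in both genotypes were considered for printing. Their window had to hold this core or at least 2 copies of CCAAT. Members with the core came first, then those with the largest responses. The presence of these motifs in the 4 windows thus follows from the choice. Below, capitals mark these letters or their reverse complement, and no copy of one overlapped a copy of the other. Each sequence runs 5′ to 3′:
Insig1 (chr5:28071162-28071461, + strand): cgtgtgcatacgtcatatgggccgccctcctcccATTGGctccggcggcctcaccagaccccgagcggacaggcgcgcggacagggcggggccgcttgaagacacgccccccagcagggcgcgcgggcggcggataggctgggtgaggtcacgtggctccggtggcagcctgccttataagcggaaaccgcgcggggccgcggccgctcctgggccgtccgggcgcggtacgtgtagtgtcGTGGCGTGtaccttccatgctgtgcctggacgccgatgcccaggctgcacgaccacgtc
Hmgcs1 (chr13:119690101-119690400, + strand): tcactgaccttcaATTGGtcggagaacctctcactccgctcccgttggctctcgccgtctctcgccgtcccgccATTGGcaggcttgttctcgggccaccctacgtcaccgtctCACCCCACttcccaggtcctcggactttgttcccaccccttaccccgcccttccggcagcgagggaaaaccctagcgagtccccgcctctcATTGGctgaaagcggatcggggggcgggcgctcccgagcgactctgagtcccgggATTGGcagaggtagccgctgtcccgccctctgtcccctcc
Dhcr7 (chr7:143829964-143830263, + strand): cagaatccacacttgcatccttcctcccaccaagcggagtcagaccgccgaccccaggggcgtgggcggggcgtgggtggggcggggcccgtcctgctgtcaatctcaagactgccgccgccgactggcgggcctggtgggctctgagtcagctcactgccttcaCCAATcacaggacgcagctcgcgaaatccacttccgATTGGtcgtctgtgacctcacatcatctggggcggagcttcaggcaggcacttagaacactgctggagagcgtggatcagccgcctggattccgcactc
Nsdhl (chrX:72918271-72918570, + strand): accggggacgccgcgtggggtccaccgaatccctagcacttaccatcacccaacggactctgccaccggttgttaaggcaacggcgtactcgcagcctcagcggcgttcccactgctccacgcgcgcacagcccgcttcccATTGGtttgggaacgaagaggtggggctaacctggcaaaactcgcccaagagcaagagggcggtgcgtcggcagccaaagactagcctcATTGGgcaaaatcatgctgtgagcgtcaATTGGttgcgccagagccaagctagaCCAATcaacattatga

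Insig1 and Hmgcs1 each hold 1 copy of the sterol regulatory element core, the Hmgcs1 window also 4 copies of CCAAT, the Nsdhl window 4 and the Dhcr7 window 2. The box CCAAT was present in the windows of 21 of the 27 members, 77.8%, against 42.5% of 12175 tested genes that have a window. At least 2 copies stood in 11 of the 27, against 15.6% of tested genes. The letters GGGCGG, a box bound by SP1, were present in 23 of the 27, 85.2%, against 63.3% of tested genes. The sterol core was found in 3 members, Acat2, Hmgcs1 and Insig1, or 11.1% against 7.63% of tested genes, and CACGTG in 6, or 22.2% against 11%. Such matches describe letters in a window and do not show binding.

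With TGF-β1, most of the pathway fell in WT cells, whereas in KO cells some members rose and others fell. In WT cells, 4 members rose and 23 fell with an adjusted p under 0.05 by limma, against 41.1% and 27.6% of all tested genes that rose and fell (68.8% called in either direction). In KO cells 10 rose and 13 fell, against 45.3% and 37.1% of all tested genes (82.4% in either direction). The median log2 difference of the sterol enzymes was -0.04 in KO and -0.34 in WT cells, and that of the fatty acid enzymes -0.03 in KO and -0.16 in WT cells, while over all tested genes it was 0.08 in KO and 0.07 in WT cells. With TGF-β1 present, 24 members were higher and 2 lower in KO than in WT cells, where 37.7% and 32.3% of all genes were higher and lower (70.1% in either direction). With vehicle only 5 were higher and 1 lower, against 7.07% and 6.41% of all genes (13.5% in either direction). The response differed between genotypes, by the interaction term, for 22 members, 19 of them more positive in KO cells, against 30.2% of all genes more positive and 28% more negative (58.2% in either direction).

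**Figure D1:**
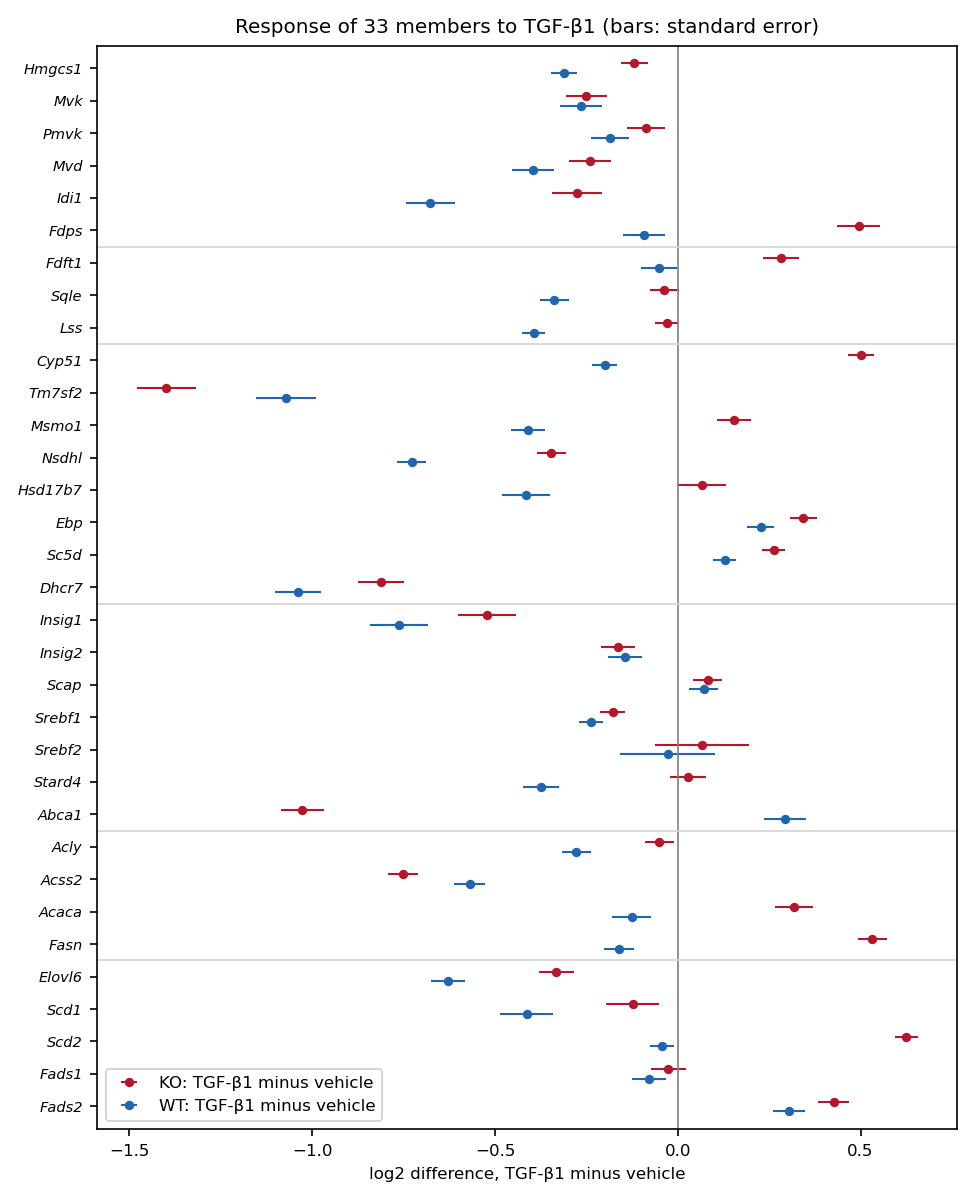
Log2 difference between TGF-β1 and vehicle (x axis) for each of the 33 members (y axis), in KO cells (red) and WT cells (blue), with standard errors. Grey lines separate mevalonate steps, squalene to lanosterol, lanosterol to cholesterol, regulators, fatty acid chain building, and elongation with desaturation; most blue points lie left of 0, while red points lie on both sides.

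The direction in KO cells depended on whether the arrays were quantile normalized, and this touches every KO rise reported below. Arrays were scaled on their 75th percentile, and on that scale the median KO response of all genes climbed with signal, reaching 0.40 for the 844 genes with a mean log2 signal over 14, against -0.24 for the 2467 genes under 6. Under quantile normalization the same medians were -0.10 and 0.02. All 33 members lay at a mean log2 signal of 8 or more, 17 of them above 12. With quantile normalization 2 members rose in KO cells, Cyp51 and Fads2, and 22 fell, in place of 10 and 13. In WT cells 2 rose and 27 fell, in place of 4 and 23. With TGF-β1 present, 18 members stayed higher in KO than in WT cells out of 24, and the same 2 stayed lower. Of all tested genes, quantile normalization left 81.6% called in KO cells, 67.2% in WT cells and 67.3% between genotypes with TGF-β1. These shares count either direction. Scaling to the median of probes above background on all arrays gave 11 higher and 13 lower members in KO cells, with 82.7% of all genes called. Normexp, another background correction, gave 9 and 13, with 82.1% of all genes called.

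**Figure D2:**
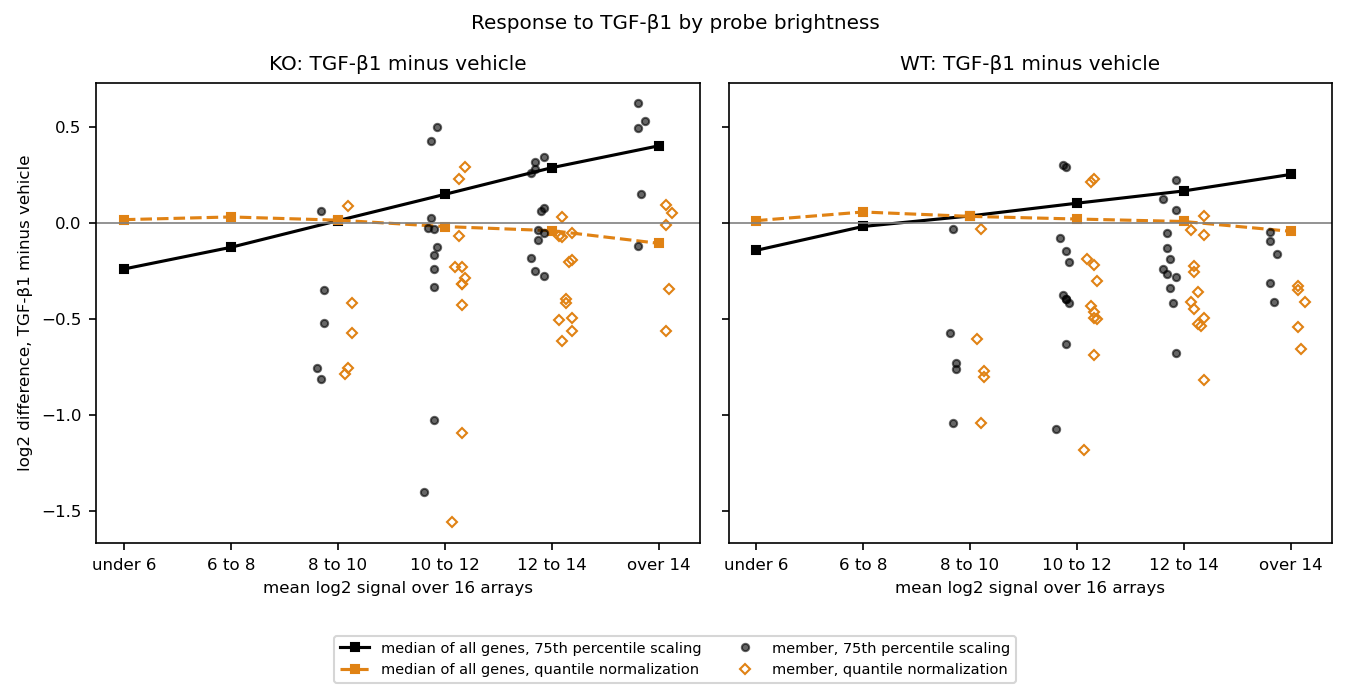
Log2 difference between TGF-β1 and vehicle (y axis) in bins of mean log2 signal over 16 arrays (x axis), for KO cells at left and WT cells at right. Squares joined by lines are medians of all tested genes and single points are members, in black after 75th percentile scaling and in orange after quantile normalization; the black medians rise with signal, from -0.24 to 0.40 in KO cells, and the orange ones lie near 0.

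Mevalonate steps come first in the route, and Hmgcs1, Mvd and Idi1 fell with TGF-β1 in both genotypes, as did Mvk on its brightest probe but not on another. Pmvk fell in WT cells, and Fdps rose in KO cells on the 75th percentile scale. Hmgcs1, which makes HMG-CoA, read 14.13, 14.08, 14.05 and 14.14 in KO cultures with TGF-β1 and 14.16, 14.25, 14.24 and 14.23 in KO cultures with vehicle. The values were 13.77, 13.75, 13.66 and 13.74 in WT cultures with TGF-β1 and 14.09, 13.98, 14.01 and 14.08 in WT cultures with vehicle. The groups did not overlap in any of the 4 comparisons, with the 4 WT TGF-β1 arrays lowest of all 16 and the KO vehicle arrays highest. The log2 difference for TGF-β1 was -0.12 ± 0.037, adjusted p = 0.0078 in KO cells and -0.31 ± 0.037, adjusted p = 2.47e-06 in WT cells (SE here and below, n = 4 arrays a group). Hmgcs1 was higher in KO than in WT cells both with TGF-β1 (0.37 ± 0.037, adjusted p = 3.21e-07) and with vehicle (0.18 ± 0.037, adjusted p = 0.00446). With quantile normalization its responses were -0.56 in KO and -0.54 in WT cells, and the interaction of 0.19 was no longer called (-0.02, adjusted p = 0.794).

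Idi1, which isomerises isopentenyl diphosphate, read 12.45, 12.26, 12.24 and 12.22 in KO cultures with TGF-β1 and 12.45, 12.71, 12.50 and 12.60 in KO cultures with vehicle. In WT cells the values were 11.90, 11.80, 11.66 and 11.74 with TGF-β1 and 12.36, 12.47, 12.48 and 12.50 with vehicle. All 4 WT TGF-β1 arrays lay below the other 12, and the KO TGF-β1 arrays lay just below the KO vehicle arrays, with no overlap before rounding. It fell by 0.28 ± 0.068 in KO cells (adjusted p = 0.00154) and by 0.68 ± 0.068 in WT cells (adjusted p = 4.2e-07) on the log2 scale, so that KO exceeded WT with TGF-β1 by 0.51 ± 0.068, adjusted p = 7.01e-06. The interaction was 0.40 ± 0.095, adjusted p = 0.00224.

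Fdps, the synthase of farnesyl diphosphate from which sterols and prenyl groups branch, read 14.66, 14.68, 14.81 and 14.78 in KO cultures with TGF-β1 and 14.08, 14.21, 14.30 and 14.36 in KO cultures with vehicle. It read 13.98, 14.08, 14.07 and 14.15 in WT cultures with TGF-β1 and 14.22, 14.16, 14.15 and 14.12 in WT cultures with vehicle. The 4 KO TGF-β1 arrays lay above the other 12, which overlapped each other. Its log2 difference for TGF-β1 was 0.49 ± 0.058, adjusted p = 1.28e-06 in KO cells and -0.092 ± 0.058, adjusted p = 0.174 in WT cells. Quantile normalization gave -0.0074, adjusted p = 0.896 for the KO cells. The difference between KO and WT cells with TGF-β1, 0.66 ± 0.058, adjusted p = 9.47e-08, was 0.41 with quantile normalization and remained called. Mvk and Mvd, the mevalonate kinase and the diphosphomevalonate decarboxylase, fell in both genotypes on their brightest probes, by 0.25 in KO and 0.26 in WT cells for Mvk and by 0.24 in KO and 0.39 in WT cells for Mvd. A dimmer Mvk probe went the other way, with 0.50 in KO and 0.16 in WT cells, so its direction is unsettled. Pmvk, the phosphomevalonate kinase, had -0.087 ± 0.052, adjusted p = 0.137 in KO cells and fell in WT cells (-0.19 ± 0.052, adjusted p = 0.00555).

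**Figure D3:**
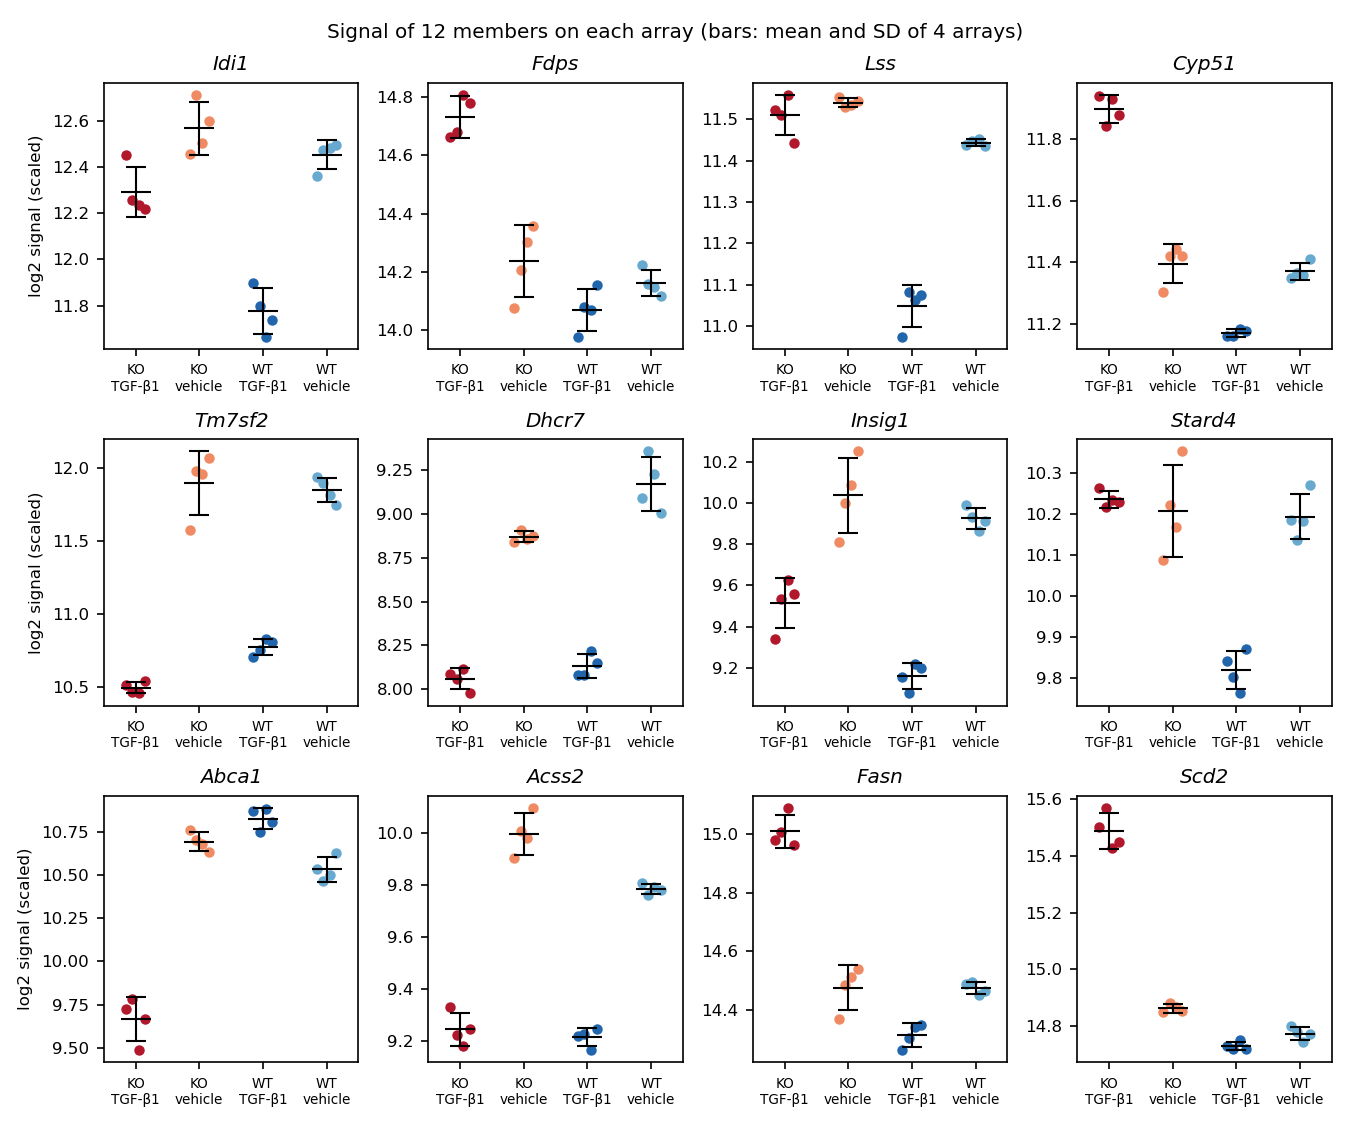
Scaled log2 signal (y axes, which do not start at 0) of 12 members on each of the 4 arrays of KO TGF-β1, KO vehicle, WT TGF-β1 and WT vehicle cultures, with mean and SD as bars. The WT TGF-β1 arrays are lowest for Idi1, Lss, Cyp51, Insig1 and Stard4, the KO TGF-β1 arrays highest for Fdps, Cyp51, Fasn and Scd2 and lowest for Abca1 and Tm7sf2.

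From farnesyl diphosphate to lanosterol, 2 of the 3 enzymes fell with TGF-β1 in WT cells and 1 rose in KO cells. Fdft1, which condenses farnesyl diphosphate to squalene, read 13.39, 13.32, 13.46 and 13.37 in KO cultures with TGF-β1 and 13.01, 13.11, 13.14 and 13.15 in KO cultures with vehicle. Its values were 12.95, 12.999, 13.09 and 13.11 in WT cultures with TGF-β1 and 13.18, 13.01, 13.11 and 13.05 in WT cultures with vehicle. The KO TGF-β1 arrays lay above all others, and the other groups overlapped. The log2 difference for TGF-β1 was 0.28 ± 0.049, adjusted p = 8.27e-05 in KO cells and -0.052 ± 0.049, adjusted p = 0.367 in WT cells. Quantile normalization gave -0.071, adjusted p = 0.133 for Fdft1 in the KO cells. KO exceeded WT with TGF-β1 by 0.35 ± 0.049, adjusted p = 1.47e-05.

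Lss, the cyclase that forms lanosterol, read 11.52, 11.51, 11.56 and 11.44 in KO cultures with TGF-β1 and 11.55, 11.53, 11.53 and 11.54 in KO cultures with vehicle. The WT arrays read 10.97, 11.08, 11.06 and 11.07 with TGF-β1 and 11.44, 11.45, 11.45 and 11.44 with vehicle. The 4 WT TGF-β1 arrays stood below the other 12, and both KO groups overlapped. Lss fell in WT cells (-0.39 ± 0.032, adjusted p = 4.37e-08), had -0.03 ± 0.032, adjusted p = 0.39 in KO cells, and was higher in KO than in WT cells with TGF-β1 (0.46 ± 0.032, adjusted p = 6.88e-09). Its other probes did not all share this: a dimmer one gave -1.67 in KO cells and -0.17 for KO against WT with TGF-β1. Sqle, the rate-limiting squalene epoxidase, fell in WT cells as Lss did, with -0.037 ± 0.039, adjusted p = 0.39 in KO cells, -0.34 ± 0.039, adjusted p = 2.17e-06 in WT cells and 0.40 ± 0.039, adjusted p = 3.1e-07 for KO against WT with TGF-β1.

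Between lanosterol and cholesterol the largest falls of the whole list stood beside rises. Tm7sf2, a sterol reductase of the nuclear envelope and endoplasmic reticulum, read 10.51, 10.46, 10.46 and 10.54 in KO cultures with TGF-β1 and 11.57, 11.98, 11.95 and 12.07 in KO cultures with vehicle. The values were 10.71, 10.76, 10.83 and 10.81 in WT cultures with TGF-β1 and 11.93, 11.89, 11.81 and 11.74 with vehicle. All 8 TGF-β1 arrays lay below all 8 vehicle arrays, and the KO TGF-β1 arrays below the WT TGF-β1 arrays. It fell in KO cells (-1.40 ± 0.082, adjusted p = 3.46e-10) and in WT cells (-1.07 ± 0.082, adjusted p = 2.18e-08), and KO was lower than WT with TGF-β1 (-0.28 ± 0.082, adjusted p = 0.00704).

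Dhcr7, the reductase of the last step to cholesterol, read 8.09, 8.06, 8.12 and 7.98 in KO cultures with TGF-β1 and 8.84, 8.91, 8.86 and 8.88 in KO cultures with vehicle. It read 8.08, 8.08, 8.22 and 8.15 in WT cultures with TGF-β1 and 9.09, 9.36, 9.23 and 9.01 in WT cultures with vehicle. Every TGF-β1 array lay below every vehicle array, and with vehicle the KO arrays lay below the WT arrays. The fall was -0.81 ± 0.063, adjusted p = 9.55e-09 in KO cells and -1.04 ± 0.063, adjusted p = 1.54e-09 in WT cells. Dhcr7 was the only member called lower in KO than in WT cells with vehicle (-0.30 ± 0.063, adjusted p = 0.00525), and with TGF-β1 the difference was -0.073 ± 0.063, adjusted p = 0.312.

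Cyp51, the lanosterol demethylase, read 11.94, 11.84, 11.93 and 11.88 in KO cultures with TGF-β1 and 11.30, 11.42, 11.44 and 11.42 in KO cultures with vehicle. In WT cells it read 11.16, 11.16, 11.19 and 11.18 with TGF-β1 and 11.35, 11.37, 11.36 and 11.41 with vehicle. The KO TGF-β1 arrays were above the other 12 and the WT TGF-β1 arrays below them, while the vehicle groups overlapped. Cyp51 rose in KO cells (0.50 ± 0.035, adjusted p = 2.96e-09) and fell in WT cells (-0.20 ± 0.035, adjusted p = 0.00013), and both calls held with quantile normalization at 0.29 and -0.30. Its interaction of 0.70 ± 0.05, adjusted p = 1.91e-08 was the most positive among the members.

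The other enzymes of this stretch differed in sign. Nsdhl, which with Msmo1 and Hsd17b7 removes methyl groups from the sterol ring, fell in KO cells (-0.35 ± 0.039, adjusted p = 8.48e-07) and in WT cells (-0.73 ± 0.039, adjusted p = 4.1e-10). Msmo1 fell in WT cells (-0.41 ± 0.047, adjusted p = 1.76e-06), while its KO response of 0.15 ± 0.047 turned to -0.34, adjusted p = 6.74e-07 with quantile normalization. Hsd17b7 fell in WT cells (-0.42 ± 0.067, adjusted p = 5.68e-05) and had 0.065 ± 0.067, adjusted p = 0.375 in KO cells. All 3 were higher in KO than in WT cells with TGF-β1, by 0.47, 0.65 and 0.69 for Nsdhl, Msmo1 and Hsd17b7. Ebp and Sc5d, a sterol isomerase and a sterol desaturase, rose in both genotypes, by 0.34 in KO and 0.23 in WT cells for Ebp and by 0.26 in KO and 0.13 in WT cells for Sc5d, and none of these 4 rises was called with quantile normalization.

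Among the regulators Abca1 fell furthest in KO cells and rose in WT cells, where Insig1 and Stard4 changed by more. Abca1, the exporter that loads cholesterol onto apolipoproteins, read 9.72, 9.78, 9.49 and 9.67 in KO cultures with TGF-β1 and 10.76, 10.70, 10.68 and 10.63 in KO cultures with vehicle. It read 10.87, 10.75, 10.88 and 10.80 in WT cultures with TGF-β1 and 10.54, 10.46, 10.50 and 10.63 in WT cultures with vehicle. The KO TGF-β1 arrays lay below all other arrays, and the WT TGF-β1 arrays lay above the WT vehicle arrays without overlap. Abca1 fell in KO cells (-1.03 ± 0.059, adjusted p = 2.48e-10), rose in WT cells (0.29 ± 0.059, adjusted p = 0.00041) and was lower in KO than in WT cells with TGF-β1 (-1.16 ± 0.059, adjusted p = 1.73e-10). The interaction of -1.32 ± 0.083, adjusted p = 5.01e-09 was the largest in size among the members and was -1.32 with quantile normalization. Of the 8 macrophage and leukocyte markers, 7 fell with TGF-β1 in KO cells and 1, Itgam, rose, while 7 fell in WT cells and Itgam had -0.064 ± 0.051, adjusted p = 0.28. Of all tested genes 37.1% fell in KO and 27.6% in WT cells. All 6 endothelial markers fell in both genotypes. With TGF-β1 5 of the 8 macrophage and leukocyte markers were lower and 1 higher in KO than in WT cells, with a median log2 difference of -0.72 and a range from -2.14 for Mrc1 to 0.24 for Itgam. Of all tested genes 32.3% were lower and 37.7% higher. Other marker lists were lower too, with medians of -0.55 for endothelial (4 of 6 lower, 0 higher), -1.17 for mesothelial (4 of 5 lower, 1 higher) and -0.43 for fibroblast markers (5 of 10 lower, 2 higher). The part of these cell types in the Abca1 difference was not tested.

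Insig1, the SREBP-induced anchor that holds SCAP in the endoplasmic reticulum, read 9.34, 9.53, 9.62 and 9.56 in KO cultures with TGF-β1 and 9.81, 9.998, 10.09 and 10.25 in KO cultures with vehicle. The WT values were 9.16, 9.08, 9.22 and 9.20 with TGF-β1 and 9.99, 9.93, 9.86 and 9.91 with vehicle. All TGF-β1 arrays lay below all vehicle arrays, and the WT TGF-β1 arrays lay lowest. Insig1, whose promoter window is printed above, fell in KO cells (-0.52 ± 0.079, adjusted p = 1.95e-05) and in WT cells (-0.76 ± 0.079, adjusted p = 6.49e-07) and was higher in KO than in WT cells with TGF-β1 (0.35 ± 0.079, adjusted p = 0.00105). The interaction, 0.24 ± 0.11, adjusted p = 0.0795, did not pass the test.

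Insig2, a related anchor of SCAP, read 10.76, 10.92, 10.82 and 10.84 in KO cultures with TGF-β1 and 10.93, 11.02, 11.05 and 10.98 in KO cultures with vehicle. It read 10.89, 10.87, 10.77 and 10.82 in WT cultures with TGF-β1 and 10.92, 10.91, 11.06 and 11.04 in WT cultures with vehicle. With TGF-β1 the KO and WT arrays overlapped, and so did they with vehicle. Insig2 fell by 0.16 in KO cells (adjusted p = 0.0047) and by 0.14 in WT cells (adjusted p = 0.0134), and of its other probes 1 gave -0.19 in KO and -0.12 in WT cells and the dimmest 0.044 in KO and 0.018 in WT cells.

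Srebf1, the gene of the SREBP forms that favour fatty acid synthesis, read 12.83, 12.97, 12.91 and 12.91 in KO cultures with TGF-β1 and 13.06, 13.07, 13.08 and 13.12 in KO cultures with vehicle. The WT arrays gave 12.72, 12.77, 12.80 and 12.82 with TGF-β1 and 13.01, 13.04, 13.02 and 13.001 with vehicle. Every TGF-β1 array lay below every vehicle array. The fall was -0.18 ± 0.034, adjusted p = 0.000177 in KO cells and -0.24 ± 0.034, adjusted p = 1.73e-05 in WT cells. KO exceeded WT with TGF-β1 by 0.13 ± 0.034, adjusted p = 0.00353, a difference that was -0.036, adjusted p = 0.346 with quantile normalization.

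Srebf2, the gene of the SREBP form that favours sterol synthesis, read 8.88, 8.66, 8.98 and 8.89 in KO cultures with TGF-β1 and 9.03, 8.75, 8.83 and 8.54 in KO cultures with vehicle. It read 8.93, 9.01, 8.78 and 8.73 in WT cultures with TGF-β1 and 8.94, 9.19, 8.92 and 8.52 in WT cultures with vehicle. All 4 groups overlapped. Its log2 difference for TGF-β1 was 0.066 ± 0.13, adjusted p = 0.643 in KO cells and -0.028 ± 0.13, adjusted p = 0.858 in WT cells, with the widest standard error of the list.

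Scap, the escort of SREBP, read 12.38, 12.38, 12.33 and 12.35 in KO cultures with TGF-β1 and 12.29, 12.31, 12.23 and 12.29 in KO cultures with vehicle. In WT cultures the values were 12.38, 12.26, 12.25 and 12.36 with TGF-β1 and 12.27, 12.29, 12.15 and 12.24 with vehicle. The KO TGF-β1 arrays lay just above the KO vehicle arrays and the other groups overlapped, and the tests gave 0.082 ± 0.039, adjusted p = 0.068 in KO and 0.071 ± 0.039, adjusted p = 0.121 in WT cells. With quantile normalization the KO value was -0.19, adjusted p = 0.00217.

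Stard4, a carrier of cholesterol between membranes, read 10.26, 10.21, 10.23 and 10.23 in KO cultures with TGF-β1 and 10.09, 10.22, 10.17 and 10.35 in KO cultures with vehicle. It read 9.84, 9.80, 9.76 and 9.87 in WT cultures with TGF-β1 and 10.18, 10.14, 10.18 and 10.27 in WT cultures with vehicle. The WT TGF-β1 arrays lay below the other 12, which overlapped. Stard4 fell in WT cells (-0.37 ± 0.049, adjusted p = 7.56e-06), had 0.028 ± 0.049, adjusted p = 0.602 in KO cells, and was higher in KO than in WT cells with TGF-β1 (0.42 ± 0.049, adjusted p = 2.28e-06). A dimmer probe went up in both, with 1.11 in KO and 0.28 in WT cells, so the WT fall holds for the brightest probe only, while KO lay above WT with TGF-β1 on both probes.

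Supply of acetyl-CoA and chain building for fatty acids moved apart as well. Acss2, which makes acetyl-CoA from acetate, read 9.33, 9.22, 9.18 and 9.24 in KO cultures with TGF-β1 and 9.90, 10.01, 9.98 and 10.10 in KO cultures with vehicle. In WT cells it read 9.22, 9.23, 9.16 and 9.25 with TGF-β1 and 9.81, 9.76, 9.79 and 9.78 with vehicle. The TGF-β1 arrays of both genotypes overlapped below the vehicle arrays, and the KO vehicle arrays lay above the WT vehicle arrays. Acss2 fell in KO cells (-0.75 ± 0.042, adjusted p = 1.82e-10) and in WT cells (-0.57 ± 0.042, adjusted p = 1.36e-08), with 0.029 ± 0.042, adjusted p = 0.543 between KO and WT cells under TGF-β1 and 0.21 ± 0.042, adjusted p = 0.00355 with vehicle. A dimmer Acss2 probe gave -0.057 for the vehicle difference.

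Fasn, the synthase that builds palmitate, read 14.98, 15.01, 15.09 and 14.96 in KO cultures with TGF-β1 and 14.37, 14.48, 14.51 and 14.54 in KO cultures with vehicle. Its WT values were 14.26, 14.30, 14.34 and 14.35 with TGF-β1 and 14.49, 14.50, 14.45 and 14.46 with vehicle. The KO TGF-β1 arrays lay above the other 12 and the WT TGF-β1 arrays below them. The KO response of 0.53 ± 0.04, adjusted p = 7.8e-09 was 0.053, adjusted p = 0.264 with quantile normalization, whereas the WT fall of -0.16 ± 0.04, adjusted p = 0.00256 deepened to -0.41. Between KO and WT cells with TGF-β1 the difference was 0.69 ± 0.04, adjusted p = 9.13e-10, and 0.45 with quantile normalization.

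Acaca, which makes malonyl-CoA, had a KO response of 0.32 ± 0.052, adjusted p = 4.52e-05 (0.034, adjusted p = 0.526 with quantile normalization) and a WT response of -0.13 ± 0.052, adjusted p = 0.0428, a call lost in 8 of 16 fits that each left out 1 array. Acly, which splits citrate to acetyl-CoA, fell in WT cells (-0.28 ± 0.039, adjusted p = 1.62e-05) and had -0.05 ± 0.039, adjusted p = 0.246 in KO cells. Both were higher in KO than in WT cells with TGF-β1, Acaca by 0.49 and Acly by 0.30, the second of which was 0.072, adjusted p = 0.0705 with quantile normalization.

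Elongation and desaturation ended the list. Scd2, a stearoyl-CoA desaturase that makes monounsaturated fatty acids, read 15.50, 15.57, 15.43 and 15.45 in KO cultures with TGF-β1 and 14.85, 14.88, 14.87 and 14.85 in KO cultures with vehicle. It read 14.73, 14.72, 14.75 and 14.72 in WT cultures with TGF-β1 and 14.80, 14.78, 14.74 and 14.77 in WT cultures with vehicle. The KO TGF-β1 arrays stood above all others with no overlap. The KO response of 0.63 ± 0.032, adjusted p = 6.29e-11 was 0.096, adjusted p = 0.0572 with quantile normalization, and the WT response was -0.043 ± 0.032, adjusted p = 0.239. KO exceeded WT with TGF-β1 by 0.76 ± 0.032, adjusted p = 2.11e-11, the largest such rise among the members, and by 0.50 with quantile normalization.

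Elovl6, which lengthens palmitate, read 10.20, 10.21, 10.06 and 10.16 in KO cultures with TGF-β1 and 10.54, 10.53, 10.47 and 10.42 in KO cultures with vehicle. The WT arrays read 9.83, 9.69, 9.69 and 9.68 with TGF-β1 and 10.44, 10.34, 10.28 and 10.36 with vehicle. All TGF-β1 arrays lay below all vehicle arrays, the WT ones lowest. Elovl6 fell in KO cells (-0.33 ± 0.047, adjusted p = 1.06e-05) and in WT cells (-0.63 ± 0.047, adjusted p = 1.92e-08), and KO exceeded WT with TGF-β1 by 0.43 ± 0.047, adjusted p = 1.02e-06. Scd1, the other stearoyl-CoA desaturase, fell in WT cells (-0.41 ± 0.072, adjusted p = 0.000117) and had -0.12 ± 0.072, adjusted p = 0.123 in KO cells. Fads2, a desaturase of polyunsaturated fatty acids, rose in KO (0.43 ± 0.043, adjusted p = 1.98e-07) and WT cells (0.30 ± 0.043, adjusted p = 1.51e-05) on its brightest probe, while a dimmer probe gave -0.035 in WT cells. Fads1, its partner enzyme, had -0.026 ± 0.047, adjusted p = 0.618 in KO and -0.079 ± 0.047, adjusted p = 0.151 in WT cells.

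By their calls in KO and WT cells, 12 members fell with TGF-β1 in both genotypes, among them Tm7sf2, Dhcr7, Insig1, Nsdhl, Elovl6 and Acss2. Acaca, Cyp51, Fasn and Msmo1 rose in KO and fell in WT cells, of which the Cyp51 rise alone was called with quantile normalization. A further 7 members fell in WT cells without a call in KO cells, and Abca1 fell in KO and rose in WT cells. Fads1, Scap and Srebf2 were called in neither. Of all tested genes 82.4% were called in KO and 68.8% in WT cells, with 37.1% and 27.6% falling. The share of all genes in each joint class was not computed, so these counts have no background beside them. The response in each genotype and the difference between genotypes with TGF-β1 use the same arrays, so these values are not separate evidence.

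With TGF-β1 most sterol and fatty acid enzymes were higher in KO than in WT cells. Of all tested genes 37.7% were higher and 32.3% lower. Of the sterol enzymes 14 of 17 were higher in KO than in WT cells and 1, Tm7sf2, was lower, with a median log2 difference of 0.37. Of the fatty acid enzymes 7 of 9 were higher and 0 were lower by limma at the adjusted threshold. Their median was 0.31, against 0.04 over all tested genes. The median of all genes climbed with signal here too. It was -0.02 at a mean log2 signal of 8 to 10, 0.08 at 10 to 12, 0.16 at 12 to 14 and 0.20 over 14. Of the 7 regulators 3 were higher, Insig1, Srebf1 and Stard4, and 1, Abca1, was lower. Their median was 0.05, near the 0.04 of all tested genes. The 6 rises not called with quantile normalization were those of Mvk, Pmvk, Ebp, Srebf1, Acly and Fads2, and with it the medians were 0.15 for the sterol and 0.21 for the fatty acid enzymes. Of 21 other probes of 17 members, 19 shared the sign of the probe used.

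**Figure D4:**
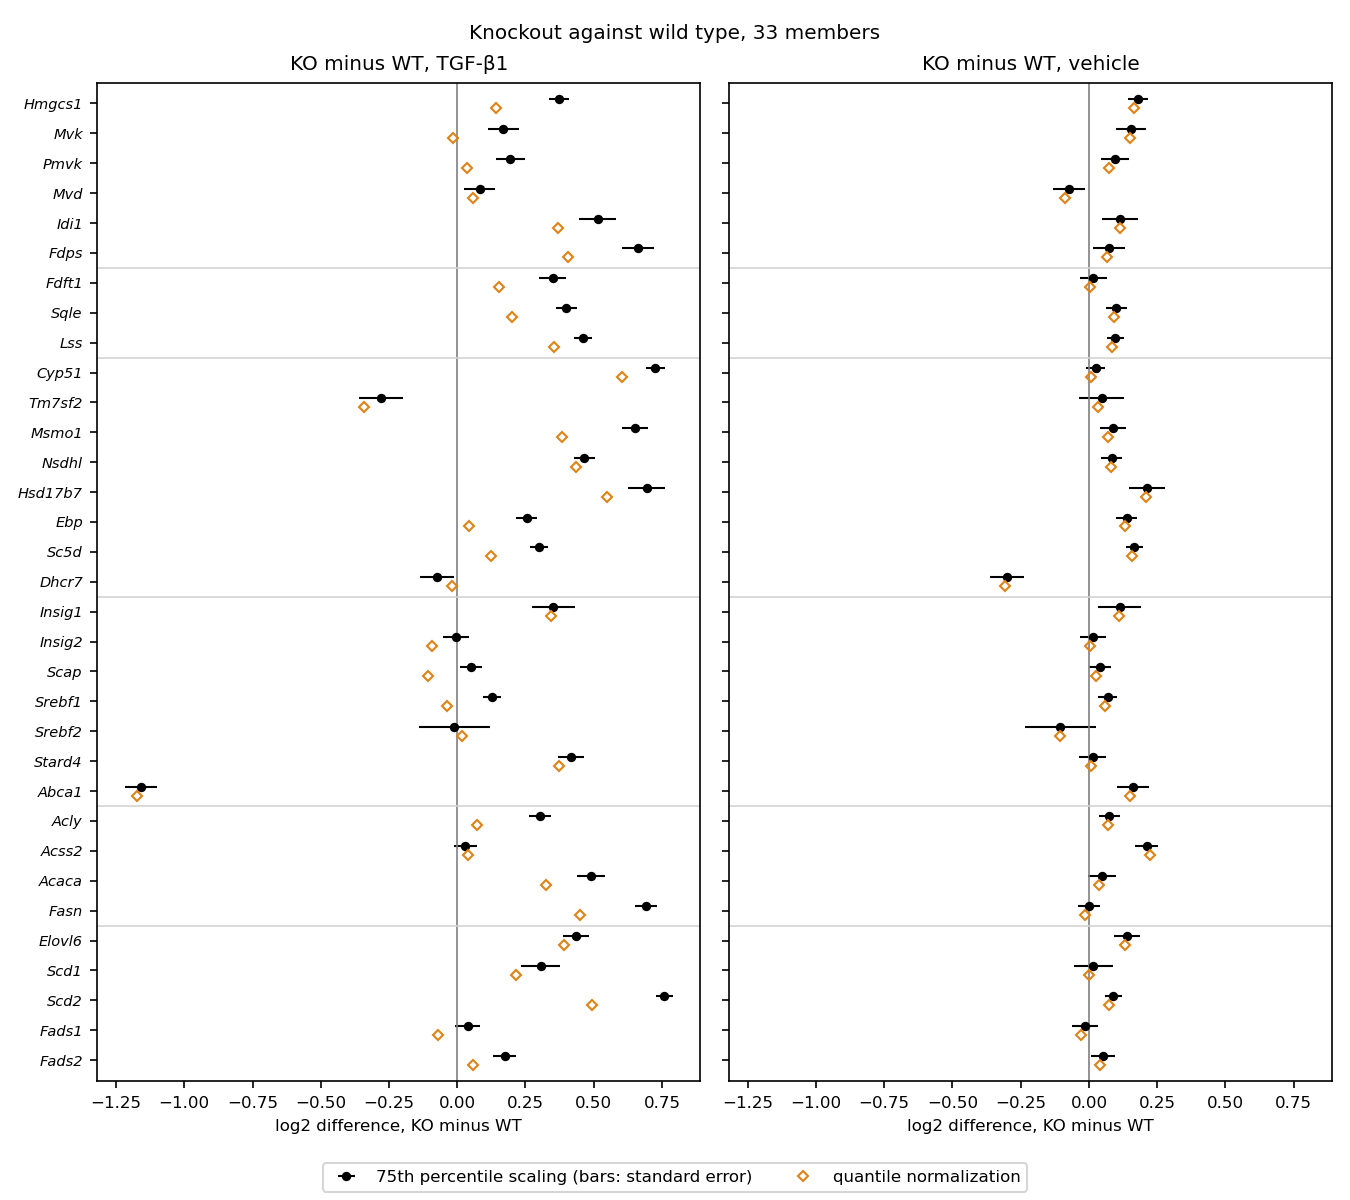
Log2 difference between KO and WT cells (x axis) for each of the 33 members (y axis), with TGF-β1 at left and with vehicle at right, after 75th percentile scaling (black, with standard errors) and after quantile normalization (orange diamonds). With TGF-β1 most members lie to the right of 0 and Abca1 at -1.16; with vehicle all lie between -0.31 and 0.22.

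With vehicle the genotypes differed little. The 5 members called higher in KO cells were Hmgcs1 (0.18), Hsd17b7 (0.21), Ebp (0.14), Sc5d (0.17) and Acss2 (0.21), as log2 differences. Within slide 1 alone limma called 0 members, against 1.29% of all tested genes. Within slide 2 alone it called only Mvk (0.29, adjusted p = 0.0227), against 6.87% of all tested genes. Both shares were below the 13.5% called over all 16 arrays. So 0 of the 6 calls were made on either slide alone, each holding 2 arrays of a group. Only 7 of 21 other probes shared the sign of the probe used, and those of Ebp (-0.075) and Acss2 (-0.057) went the other way. With the mean over all kept probes of a gene 3 members were called, against 13.4% of all tested genes. Leaving out KO vehicle array 2, 3 or 4, or WT vehicle array 2 or 3, brought the 5 higher calls to 3; the Hsd17b7 call was lost in 14 and the Ebp call in 5 of 16 such fits.

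Of 43 other genes of the pathway, 42 were tested. TGF-β1 raised 18 and lowered 15 of them in KO cells, near the 45.3% and 37.1% of all tested genes. In WT cells it raised 10 and lowered 16, against 41.1% and 27.6% of all genes. With TGF-β1 17 were higher and 13 lower in KO than in WT cells, near the 37.7% and 32.3% of all genes. Nr1h3, the gene of LXR alpha, fell in KO (-2.09 ± 0.045, adjusted p = 2.77e-15) and WT cells (-0.92 ± 0.045, adjusted p = 1.32e-10), with an interaction of -1.17 ± 0.063, adjusted p = 9.75e-10. Apoe, an acceptor of exported cholesterol, fell in KO (-1.75 ± 0.041, adjusted p = 7.4e-15) and WT cells (-1.20 ± 0.041, adjusted p = 2.47e-12). Lipa, the lysosomal lipase that frees cholesterol from its esters, fell by 1.66 in KO and 1.07 in WT cells, and Abcg1, an exporter, fell by 1.28 in KO and 1.31 in WT cells.

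Macrophages express Nr1h3, Apoe, Lipa and Abcg1 strongly, and 7 of the 8 macrophage and leukocyte markers fell in each genotype, as given above; their part was not tested. In KO cells with TGF-β1 5 of the 8 genes of LXR and sterol export fell and 1 rose, where 37.1% of all genes fell and 45.3% rose, and in WT cells 6 fell and 1 rose, where 27.6% fell and 41.1% rose. Ch25h, which makes an oxysterol, was lower in KO than in WT cells with TGF-β1 (-0.81 ± 0.062, adjusted p = 1.98e-08), and Acsl4, which activates long-chain fatty acids, was higher (0.59 ± 0.046, adjusted p = 2.44e-08). Hsd17b12, an enzyme of chain elongation, had an interaction of 0.74 ± 0.084, adjusted p = 3.16e-06. With vehicle 4 of the 42 were higher and 3 lower in KO cells, near the 7.07% and 6.41% of all genes, among them Abcg1 (-0.57 ± 0.064, adjusted p = 4.06e-05), Ch25h (-0.31 ± 0.062, adjusted p = 0.00347), Mcat of mitochondrial fatty acid synthesis (0.14 ± 0.027, adjusted p = 0.00419) and Npc2 of lysosomal sterol export (-0.16 ± 0.036, adjusted p = 0.00792).

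**Figure D5:**
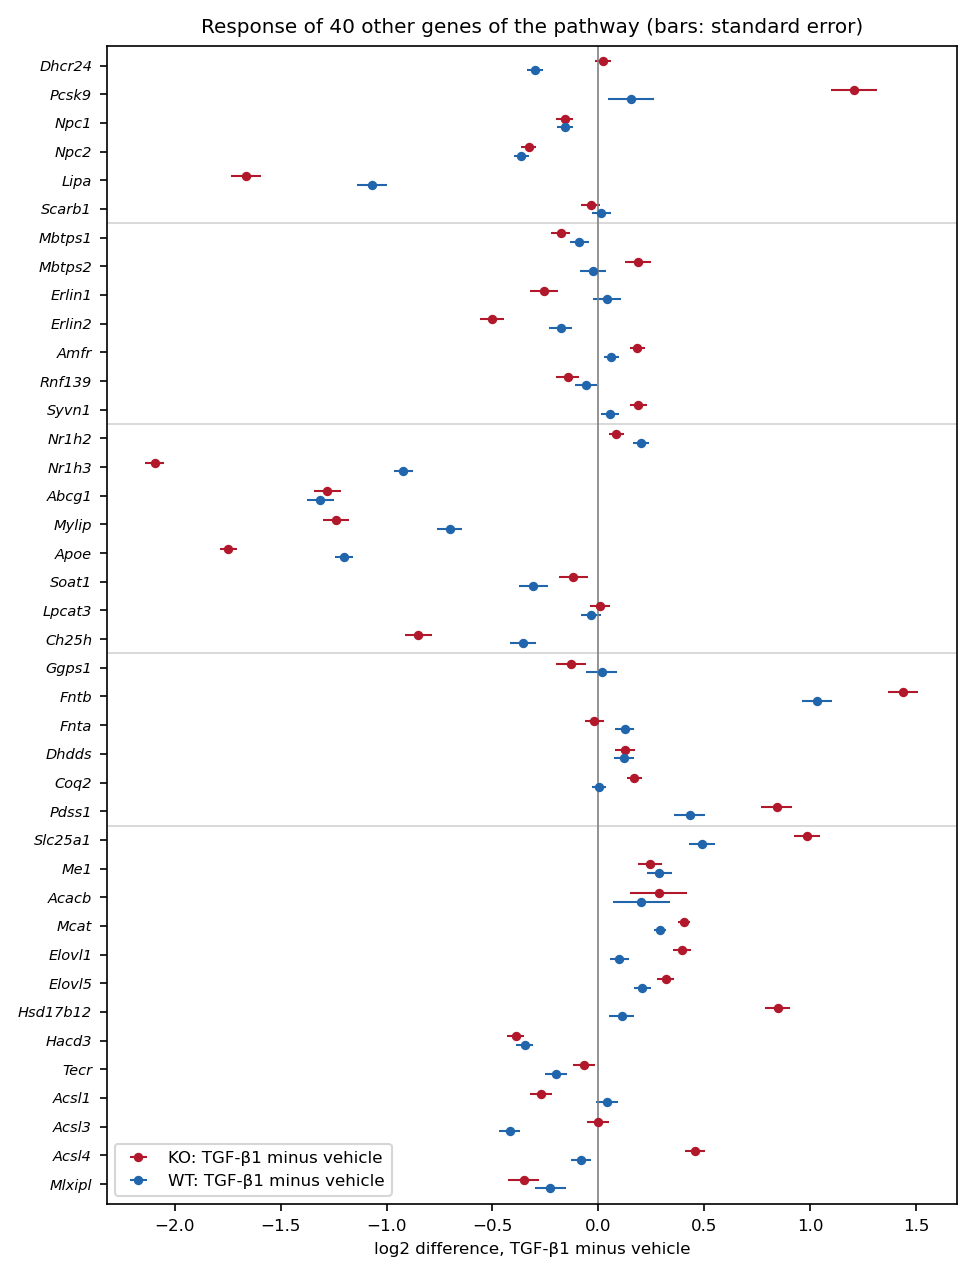
Log2 difference between TGF-β1 and vehicle (x axis) for 40 of the 42 other genes of sterol uptake, SREBP processing, LXR and sterol export, branch enzymes and fatty acid supply (y axis, in that order between grey lines), in KO cells (red) and WT cells (blue), with standard errors. Nr1h3 lies at -2.09 in KO and -0.92 in WT cells.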

How the data were processed

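Total RNA of the 16 cultures was labelled with Cy3 and hybridised to a 1-colour Agilent design drawn on mm9. Per the file headers, the deposited spot intensity of each probe was written on a linear scale by Agilent Feature Extraction 11.0.1.1 after background subtraction and spatial detrending, and per the submitters' processing notes the same program was used. The deposited background and saturation flags of that program were used as given. A further table of the authors gives log2 values of 9933 probes; its normalization is not stated, its columns correlate with log2 intensity at 0.999 or above, and 82.7% of its probes differed at least 2-fold between groups. Higher there is brighter, and values are not centred per probe. Its column medians were 6.391, 6.38, 6.388 and 6.381 for KO TGF-β1, 6.586, 6.593, 6.567 and 6.58 for KO vehicle, 6.473, 6.466, 6.493 and 6.469 for WT TGF-β1, and 6.595, 6.598, 6.615 and 6.609 for WT vehicle. It holds 4 members and served as an alternative only.

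Without controls an array held 59305 spots of 56605 probes, 0 of them saturated. Log2 intensities were averaged over spots of a probe and arrays shifted to 1 common 75th percentile. Leaving out 27 probes that carried outlier marks, 33889 probes were kept that passed the background flag throughout any 1 group. Probes were named by transcript accession, without version, through RefSeq GRCm38.p6 (32994 probes, 22911 genes), and the brightest kept probe stood for each of 15395 genes. Levels were not compared between probes. limma 3.58.1 in R 4.3.3 fitted 1 coefficient per group over 16 arrays, 2-sided, with Benjamini-Hochberg adjustment over 15395 genes in each of 5 comparisons. The same fit was also run on simulated data with independent noise and few changed genes, unlike these data. That run therefore does not vouch for the calls given here. Each of 2 slides held 2 arrays of every group. The members, gene lists, role groups and naming rule were chosen with earlier results of these data known. Named with values on every array were the regulators and, for each role and comparison, the called member with the largest log2 difference; of the other genes, the 4 with the smallest adjusted p per comparison, where 2 genes of the list are counted but not reported here. The number of arrays limits the precision. Same-numbered replicates of different groups had deviations correlated with a median r of 0.0765 (lowest -0.034), so the numbers were not taken to pair samples. The median r was 0.0515 for other numbers on the same slide and -0.057 for arrays on different slides. The main fit held no slide term, and fits with slide as a block are given below.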

Additional observations from a re-analysis of the deposited data

Results flagged for a closer look

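Within groups of 4 arrays, 4 single arrays stood apart from the other 3 among 132 member-by-group sets examined, by the ratio of gap to range above Dixon's critical value; chance marks about 1 in 20 sets. Idi1 read 12.36 on WT vehicle array 1 against 12.47 to 12.5 on the others, a ratio of 0.835. Acly read 13.48 on WT TGF-β1 array 1 against 13.58 to 13.6, a ratio of 0.886. Elovl6 read 9.83 on the same array against 9.68 to 9.69, a ratio of 0.939. Fads1 read 11.49 on KO TGF-β1 array 4 against 11.57 to 11.58, a ratio of 0.938.

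The TGF-β1 response differed between KO and WT cells, by limma's interaction term with adjusted p under 0.05, for 22 members, and the values are KO response minus WT response in log2 units. In the mevalonate steps it was 0.19 for Hmgcs1, 0.40 for Idi1 and 0.59 for Fdps. From squalene to lanosterol it was 0.33 for Fdft1, 0.30 for Sqle and 0.36 for Lss. From lanosterol on it was 0.70 for Cyp51, -0.33 for Tm7sf2, 0.56 for Msmo1, 0.38 for Nsdhl, 0.48 for Hsd17b7, 0.13 for Sc5d and 0.23 for Dhcr7. Among regulators it was 0.40 for Stard4 and -1.32 for Abca1. Among fatty acid enzymes it was 0.23 for Acly, -0.18 for Acss2, 0.44 for Acaca, 0.69 for Fasn, 0.30 for Elovl6, 0.29 for Scd1 and 0.67 for Scd2. With quantile normalization 18 of the 22 were called, where 55.5% of all tested genes were. Those lost were Hmgcs1 (-0.02, adjusted p = 0.794), Sc5d (-0.035, adjusted p = 0.6), Acly (0.0037, adjusted p = 0.953) and Scd1 (0.21, adjusted p = 0.125). The Dhcr7, Tm7sf2 and Scd1 calls were lost in 11, 3 and 1 of 16 fits that each left out 1 array.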

How the results depend on the processing

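Over the 33 members, 5 comparisons and the alternatives other than leaving out 1 array, 1679 of 1802 values were counted as the same. These kept their side of the threshold, and any change of sign among them was between values not called. A further 71 lost the call, 36 gained it and 16 turned, that is, changed sign with a call in either fit. The causes of the changes below were not tested. Some alternatives also used fewer arrays or fewer genes. The number of arrays and the signal over background limit what could be seen.

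With quantile normalization the KO response had 2 members higher and 22 lower, against 81.6% of all tested genes called in either direction. Its medians were -0.34 for the sterol and -0.23 for the fatty acid enzymes. It turned for Fdps (-0.0074), Fdft1 (-0.071), Msmo1 (-0.34), Hsd17b7 (-0.20), Ebp (-0.051), Sc5d (-0.067) and Scap (-0.19). The WT response had 2 higher, with medians of -0.49 and -0.41, and turned for Sc5d (-0.032). Between KO and WT cells with TGF-β1 the medians were 0.15 and 0.21, with Mvk at -0.015 and Srebf1 at -0.036. The interaction medians were 0.15 and 0.21, with Hmgcs1 at -0.020 and Sc5d at -0.035. Normexp background correction with an offset of 50 gave fatty acid medians of 0.016 for the KO response and 0.34 between KO and WT cells with TGF-β1, and a sterol median of -0.38 for the WT response. Scaling to the median of probes above background on all arrays gave a fatty acid median of 0.34 between KO and WT cells with TGF-β1.

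The authors' deposited value table, with 4 members, gave 4 calls for the KO response (1 higher, 3 lower), 4 for the WT response (2 higher, 2 lower), 0 for KO against WT with vehicle (0 higher and 0 lower), 3 with TGF-β1 (1 higher) and 4 for the interaction (1 higher). Lss there had -0.13 between KO and WT cells with TGF-β1 and -0.25 for the interaction, and Stard4 0.36 for the WT response. The mean over kept probes turned Mvk to 0.13 in the KO response, gave a fatty acid median of -0.28 for the WT response, and left 3 calls for KO against WT with vehicle (2 higher) and 1 lower interaction. With that mean 13.4% of all tested genes were called for KO against WT with vehicle and 57.8% for the interaction. With the arrays of both vehicle groups alone 3 members were higher in KO cells, where 10.7% of all tested genes were called in either direction.

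Within slide 1 KO against WT with vehicle had 0 calls (0 higher and 0 lower) with a fatty acid median of -0.0039. Within slide 2 it had 1 call (1 higher, 0 lower) with a median of 0.10. Of all tested genes 1.29% were called within slide 1 and 6.87% within slide 2. The WT fatty acid median was -0.21 within slide 1 and -0.11 within slide 2. Within slide 1 there was 1 lower member between KO and WT cells with TGF-β1, and 13 interaction calls (12 higher and 1 lower). The interaction was called there for 36.6% of all tested genes. With slide as a block there were 26, 27, 7, 26 and 24 calls for the KO response, the WT response, KO against WT with vehicle, with TGF-β1, and the interaction. With the replicate number as a block there were 25, 27, 6, 26 and 22 in the same order, against 23, 27, 6, 26 and 22 without it, and the block changed no other count by over 1.5 times. Of all tested genes 83.3%, 70.3%, 15.5%, 71.4% and 60.5% were called with slide as a block. With the replicate block the shares were 83.3%, 70.3%, 14.9%, 71.6% and 60%.

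Over 2640 values, leaving out 1 array at a time gave 0 changes of sign with a call in either fit, lost 43 calls and gained 13. Changes of sign between values not called were not counted. For the KO response the calls numbered 23 to 24, with 10 higher and 13 to 14 lower, and the medians were -0.079 to -0.029 for sterol and -0.037 to -0.0049 for fatty acid enzymes. For the WT response the calls numbered 26 to 27, with 4 higher and 22 to 23 lower, and the medians were -0.35 to -0.33 for sterol and -0.17 to -0.14 for fatty acid enzymes. For KO against WT with vehicle the calls numbered 4 to 8, with 3 to 7 higher and 1 lower, and the medians were 0.084 to 0.13 for sterol and 0.031 to 0.08 for fatty acid enzymes. For KO against WT with TGF-β1 the calls numbered 25 to 26, with 23 to 24 higher and 2 lower, and the medians were 0.36 to 0.39 for sterol and 0.31 to 0.35 for fatty acid enzymes. For the interaction the calls numbered 21 to 22, with 18 to 19 higher and 2 to 3 lower, and the medians were 0.26 to 0.33 for sterol and 0.24 to 0.33 for fatty acid enzymes. Of all tested genes 80.5% to 82.7% were called for the KO response and 65.8% to 69.5% for the WT response. The shares were 9.89% to 14% between genotypes with vehicle, 67.4% to 70.6% with TGF-β1, and 56% to 58.5% for the interaction.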
